A study of Mus musculus with 12 samples.

Results

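The promoters of 60 genes of the mouse germline and of sperm were followed through the epididymis by their DNA methylation. A CpG site was assigned to a gene where it lay within 2 kb of the start of any annotated transcript of that gene on GRCm38, and the methylation of a gene in a sample is the percentage of methylated reads over all its sites. Of the 60 genes, 6 had at least 1 of the 14149 sites of the count table (Dazl, D1Pas1, Tex14, Tex101, Spaca3 and Tssk6), with 14 sites between them. The other 54 had no site in it. Of all 55450 annotated genes, 3667 had a site, and 6188 sites of the table lay in their windows.

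Sorting by fluorescence gave testicular spermatozoa and those of the 3 segments of the epididymis (caput, corpus and cauda), and each of these 4 groups was profiled in 3 samples by reduced representation bisulfite sequencing (RRBS). According to the paper, cauda spermatozoa were flushed out by perfusion, and the other groups came from cut and dissociated tissue. In comparisons with cauda, segment and way of collection therefore cannot be told apart. The paper also names spermatids together with its testicular spermatozoa. In RRBS, DNA is digested at CCGG, short fragments are treated with bisulfite, and a cytosine that stays a cytosine in a read counts as methylated. All 4 groups came from untreated B6D2F1 mice aged 10 to 12 weeks that carry the transgene named Tg(CAG/su9-DsRed2, Acr3-EGFP)RBGS002Osb, in which the ubiquitous CAG promoter drives a red protein of the mitochondria and the Acr3 promoter a green protein of the acrosome. Each sample was made from pooled mice, and the sources used here do not say whether samples with the same number came from the same animals, so p-values say nothing of the spread between animals. Those of limma and of the permutation test measure the spread between these samples, and those of the logistic regression the error of counting reads.

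Germ cells depend on genes that most somatic tissues keep silent, and the CpG-rich promoters of many of these genes are methylated in somatic cells and free of methylation in the male germline. The piRNA and germ granule genes silence transposons and hold RNA in the developing germ cell, the meiotic genes pair and recombine the chromosomes, and the later genes build the compact chromatin, the flagellum and the acrosome of the sperm. Spermatozoa leave the testis unable to fertilise and mature while they pass from the caput through the corpus to the cauda of the epididymis, where they are stored.

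The question was whether these promoters differ in methylation between testicular spermatozoa and spermatozoa of each epididymal segment. Reads over the 14149 sites numbered 945451, 1007992 and 879218 in testicular replicates 1, 2 and 3, 643941, 869129 and 706411 in caput, 429606, 848746 and 616626 in corpus, with 784708, 679576 and 765781 in cauda. Over the 14 sites of the 6 genes, a sample had between 362 reads (corpus replicate 1) and 812 reads (caput replicate 2). Caput replicate 1 stood apart from the other samples of its group: across all sites its Pearson correlation was 0.872 with caput replicate 2 and 0.857 with caput replicate 3, against 0.944 between these last. The lowest correlation within any other group was 0.931, between corpus replicates 1 and 3. CpG sites are not independent replicates, and results are given with and without caput replicate 1.

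Methylation was higher in caput than in testicular spermatozoa at 4 of the 6 measured genes, Dazl, D1Pas1, Tex14 and Tex101, in every one of the 3 caput samples. Over all 3667 genes, 14.8% lay above every testicular sample in all 3 caput samples. At the level of single sites, a logistic regression on the pooled reads called 11 of the 14 sites (adjusted p under 0.01 over all 14149 sites and a difference above 25 percentage points), all 11 with higher methylation in caput. This test called 16.8% of all sites, 1634 with higher and 743 with lower methylation. It counts reads and ignores the spread between samples. limma per site called 8 of the 14 (6.20% of all sites). With an overdispersion term the regression called 0 of the 14 sites and 0 of all 14149, but that test also missed the changed sites of simulated data and cannot tell a stable call from another. limma, which uses that spread and was fitted to all 3667 genes and 12 samples, called 3 of the 6 genes at an adjusted p under 0.05, all 3 with higher methylation (Dazl, Tex101 and D1Pas1), where it called 6.52% of all genes (192 higher and 47 lower). In a pooled sample, a partial level does not tell apart a share of cells with methylated copies, partial methylation in each cell, and DNA that is not from the sorted cells.

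The same counts were smaller for corpus and 0 for cauda. In corpus, 5 of the 14 sites were called by the logistic regression (3.96% of all sites), all 5 with higher methylation. limma per site called 0 of the 14 (0.240% of all sites). Without corpus replicate 2 the logistic regression called 1 site, of Tex101, with a difference of 28.9 points. The share of all sites called is not given for this setting. Of the 6 genes, 3 lay above every testicular sample in all 3 corpus samples (7.28% of all genes). limma called 0 of the 6 genes in corpus (0.627% of all genes), with 4 at an unadjusted p under 0.05 (Dazl, Tex101, D1Pas1 and Tssk6), as were 389 of all 3667 genes. The pooled logistic regression per gene called 2 (2.62% of all genes). limma called 1 gene without testicular replicate 3 (Tex101, adjusted p = 0.0357, with 0.791% of all genes called) and 1 without corpus replicate 2 (Tssk6, adjusted p = 3.81e-07, with 1.01% of all genes called). In cauda, the logistic regression called 0 of the 14 sites (0.233% of all sites), with 0 at an unadjusted p under 0.05 (22.7% of all sites), and limma per site called 0 (0.0707% of all sites). limma called 0 of the 6 genes in cauda (0.0273% of all genes), with 0 at an unadjusted p under 0.05 (152 of all 3667 genes were), and the pooled logistic regression per gene called 0 (0.109% of all genes). No gene of the 6 lay above every testicular sample in all 3 cauda samples (2.78% of all genes). The 3 comparisons share the testicular samples.

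Per sample, the median over the 6 genes was 5.33%, 1.07% and 3.48% in testicular replicates 1, 2 and 3, 86.3%, 50% and 54.7% in caput, 27.7%, 36.9% and 14.2% in corpus, with 1.17%, 2.94% and 4.0% in cauda. Caput samples were all above the corpus samples, and these above all testicular and cauda samples. The median over all 3667 genes was between 0 and 2.46% in every sample. The median difference from testicular spermatozoa over the 6 genes was 51.5 percentage points in caput, 18.2 in corpus and -0.707 in cauda, and the median over all genes was 0 in each. That of cauda had no steady sign, with 0.641, -1.997 and 0 points without testicular replicate 1, 2 or 3. From the 5th to the 95th percentile, the differences of all genes ran from -16.9 to 41.0 points in caput, from -10.1 to 15.8 in corpus and from -6.80 to 5.21 in cauda. Without caput replicate 1, the median of the 6 genes in caput was 38.5 points, the logistic regression called 10 of the 14 sites (11.9% of all sites), and limma called 3 of the 6 genes, Dazl, Tex101 and Tex14 (2.70% of all genes).

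**Figure D1:**
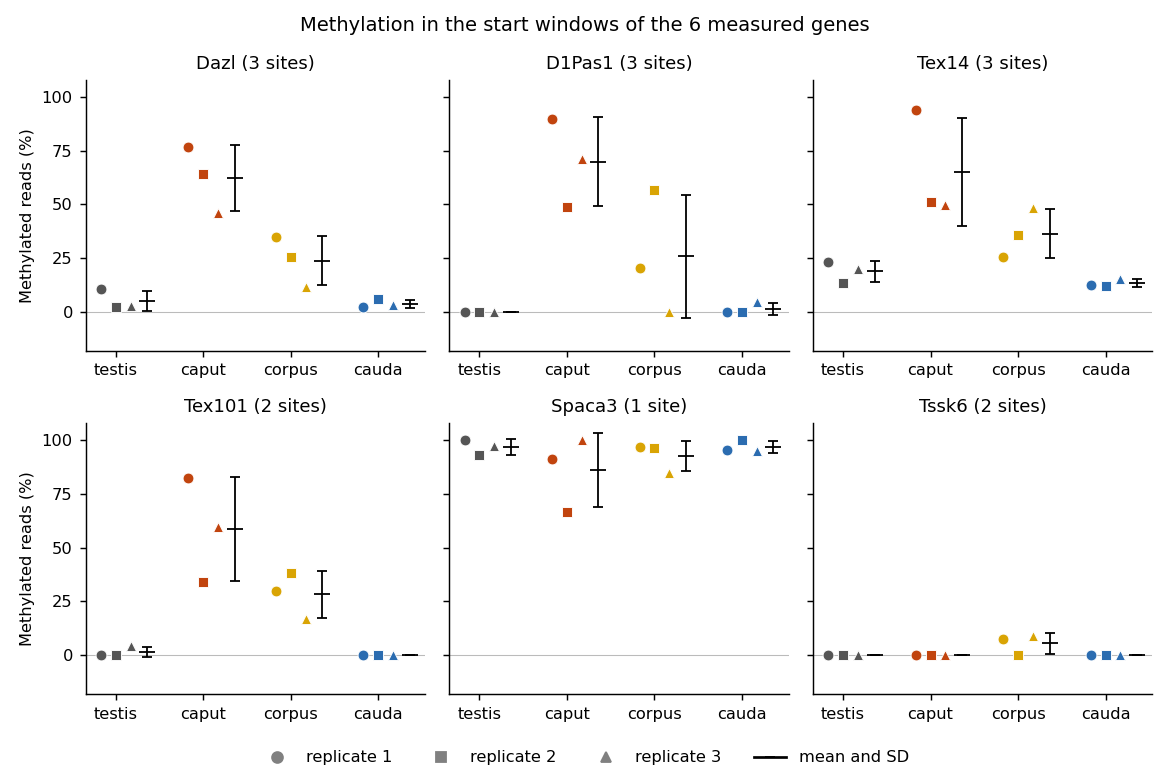
Methylated reads in percent (vertical axis) over the sites within 2 kb of a transcript start in each sample of testicular, caput, corpus and cauda spermatozoa, 1 panel for each of the 6 genes. Symbols mark replicates 1, 2 and 3, and the bar beside them is the mean with the SD of 3 samples. At Dazl, D1Pas1, Tex14 and Tex101 the 3 caput samples, from 33.9% to 94.0%, lay above all testicular and cauda samples, which were at most 23.3%.

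Among the 13 genes grouped here under the piRNA pathway and germ granules, Dazl and D1Pas1 had sites. The roles are a broad grouping for description. Dazl encodes an RNA-binding protein that germ cells need to develop. Its methylation in testicular spermatozoa was 10.7% of 272 reads (Wilson 95% interval 7.53 to 14.9%), 2.14% of 280 reads (0.986 to 4.60%) and 2.88% of 208 reads (1.33 to 6.15%) in replicates 1, 2 and 3. In caput it was 76.6% of 128 reads (68.5 to 83.1%), 64.0% of 325 reads (58.6 to 69.0%) and 46.0% of 187 reads (39.0 to 53.1%). All caput samples were high and all testicular samples low, with no overlap of the groups or of their intervals. Such intervals, and the limits given below for samples without a methylated read, cover counting error only, since amplified reads and neighbouring sites are not independent. Corpus samples held 34.7% of 124 reads (26.9 to 43.4%), 25.5% of 161 reads (19.4 to 32.7%) and 11.7% of 214 reads (8.04 to 16.7%). Cauda samples held 2.35% of 213 reads (1.01 to 5.38%), 5.88% of 170 reads (3.23 to 10.5%) and 3.16% of 190 reads (1.46 to 6.72%). Corpus lay between caput and testis without overlapping either, although the interval of corpus replicate 3 overlapped that of testicular replicate 1 and the interval of corpus replicate 1 that of caput replicate 3. The cauda samples fell within the testicular range.

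The mean of Dazl was 62.2% ± 15.4 in caput and 5.23% ± 4.72 in testicular spermatozoa (SD, n = 3 each; exact permutation test, two-sided p = 0.1). A two-sided p of 0.1 is the smallest that 3 samples against 3 can give. The difference of 57.0 percentage points ranked 42 among 3667 genes. By limma it was 4.95 (SE 0.72) on the scale of log2((percent methylated + 1)/(percent unmethylated + 1)), with an adjusted p of 0.00813, and 3 of 3 caput samples were above every testicular sample. Without caput replicate 1 the difference was 49.8 points (limma, adjusted p = 0.0291). In corpus the mean was 23.9% ± 11.6 (SD, n = 3), 18.7 points above testis in 3 of 3 samples, with a limma adjusted p of 0.235. The cauda mean was 3.8% ± 1.85 (SD, n = 3), and its difference of -1.43 points is smaller than the SD of the testicular samples.

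D1Pas1 is an intronless relative of the X-linked RNA helicase gene Ddx3x that is transcribed in the testis. No methylated read was seen in testicular spermatozoa among 53, 48 and 67 reads, which allows levels of up to 5.66%, 6.25% and 4.48% in replicates 1, 2 and 3 (3 reads of the coverage). In caput the methylation was 90% of 209 reads (85.1 to 93.3%), 48.7% of 152 reads (40.9 to 56.6%) and 71.1% of 90 reads (61.0 to 79.5%). Each caput sample was thus far above the testicular limits. Corpus samples held 20.7% of 58 reads (12.3 to 32.8%), 56.8% of 111 reads (47.5 to 65.6%) and 0 of 39 reads (up to 7.69%). In cauda there was no methylated read among 146 and 61 reads in replicates 1 and 2 (up to 2.05% and 4.92%) and 4.84% of 62 reads (1.66 to 13.3%) in replicate 3. Corpus was spread widely, with replicate 2 above the lowest caput sample and replicate 3 at the testicular level, and cauda was low throughout.

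The caput mean of D1Pas1, 69.9% ± 20.7 (SD, n = 3), was 69.9 points above testis, the difference with rank 4 of all 3667 genes (exact permutation test, two-sided p = 0.1). limma gave 8.07 (SE 1.65) on the log2 scale with an adjusted p of 0.0272, and 3 of 3 caput samples were above testis. The log2 value depends on the pseudo-percent of 1, because the testicular samples are at 0. The limma call did not hold without caput replicate 1, where the difference was 59.9 points and the adjusted p 0.0932, nor without testicular replicate 1, 2 or 3 (adjusted p = 0.0757, 0.0729 and 0.0780), nor with a block for the replicate number (0.0623). The corpus mean was 25.8% ± 28.7 (SD, n = 3; limma, adjusted p = 0.447, 2 of 3 samples above testis). Its difference of 25.8 points was 10.3 without corpus replicate 2 and 38.7 without corpus replicate 3. The cauda mean was 1.61% ± 2.79 (SD, n = 3), 1.61 points above testis and within the counting limits of single samples. For the pair of Dazl and D1Pas1, the 6 sites were all called in caput (16.8% of all sites). The 3 sites of D1Pas1 were also called in corpus (3.96% of all sites). Without corpus replicate 2 these 3 were not called in corpus, with differences of 11.8, 12.5 and 12.9 points.

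The capitals in the following GRCm38 sequences mark the measured CpGs upstream of both genes, which carried the difference between caput and testis. Dazl is shown on the minus strand, chr17:50294146-50294269, and D1Pas1 on the plus strand, chr1:186967190-186967371.
Dazl: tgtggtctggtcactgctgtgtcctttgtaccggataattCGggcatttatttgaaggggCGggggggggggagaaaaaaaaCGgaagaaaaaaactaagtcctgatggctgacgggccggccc
D1Pas1: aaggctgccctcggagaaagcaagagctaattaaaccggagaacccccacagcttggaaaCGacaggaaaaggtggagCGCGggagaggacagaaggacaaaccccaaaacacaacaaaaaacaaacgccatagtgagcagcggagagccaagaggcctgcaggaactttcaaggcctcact
The 3 Dazl sites lie at positions -551, -573 and -593 from the nearest transcript start (50294187, 50294209 and 50294229 of chromosome 17), outside the gene. Their caput means were 64.3%, 61.0% and 62.1% and their testicular means 5.63%, 4.68% and 5.46%. The D1Pas1 sites at -166, -148 and -146 (186967250, 186967268 and 186967270 of chromosome 1) also lie outside the gene, in a stretch that is within 2 kb of a start of Gm37912 too. Their caput means were 71.2%, 68.1% and 70.5%. Within each gene the sites thus stood at nearly the same level, and each set of 3 lies on 1 fragment between neighbouring CCGG positions (87 bp for Dazl and 268 bp for D1Pas1), so that the same reads can cover several of them.

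The remaining 11 genes of this role had no site in the table: Mael, Asz1, Mov10l1, Ddx4, Tdrd1, Tdrd9, Piwil1, Piwil2, Piwil4, Rnf17 and Stk31. They include the 3 Piwi proteins that bind piRNAs (Piwil1, Piwil2 and Piwil4), the helicases Mov10l1, Ddx4 and Tdrd9, and the Tudor proteins Tdrd1 and Rnf17.

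Of the 11 genes grouped here as meiotic only Tex14 had sites in the table. Tex14 encodes a protein of the bridges that keep dividing germ cells connected. Over its 3 sites, testicular spermatozoa had 23.3% of 146 reads (17.2 to 30.8%), 13.4% of 231 reads (9.62 to 18.4%) and 20% of 85 reads (12.9 to 29.7%) methylated. Caput spermatozoa had 94.0% of 50 reads (83.8 to 97.9%), 51.3% of 187 reads (44.2 to 58.4%) and 49.7% of 185 reads (42.6 to 56.9%). Caput replicate 1 was far above the other caput samples, which were close to each other and still above all testicular samples. Corpus spermatozoa had 25.4% of 67 reads (16.5 to 36.9%), 35.8% of 173 reads (29.1 to 43.2%) and 48.3% of 87 reads (38.1 to 58.6%), and cauda spermatozoa 12.8% of 219 reads (9.0 to 17.9%), 11.9% of 151 reads (7.67 to 18.1%) and 15.5% of 148 reads (10.6 to 22.2%). The corpus samples were all above the testicular ones, by little in replicate 1, and the cauda samples overlapped the testicular range at its lower end.

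The caput mean of Tex14 was 65.0% ± 25.1 and the testicular mean 18.9% ± 5.02 (SD, n = 3 each), a difference of 46.1 points that ranked 125 among all genes (exact permutation test, two-sided p = 0.1). limma gave 3.35 (SE 0.92) on the log2 scale with an adjusted p of 0.0654, which missed the threshold although 3 of 3 caput samples were above testis. Without caput replicate 1 the difference was smaller, 31.6 points, and the adjusted p by limma was 0.0460. Without caput replicate 3 it was 53.8 points with an adjusted p of 0.0492. The corpus difference was 17.6 points (limma, adjusted p = 0.674, higher in 3 of 3 samples), and 11.7 points without corpus replicate 3, and the cauda difference -5.49 points (limma, adjusted p = 1, with overlapping samples). That of cauda was -0.899 points with equal weight for each site and -1.15 with at least 20 reads in every sample. It was -3.29 and -8.23 points without testicular replicate 1 or 2.

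The 3 sites of Tex14 lie in an intron and fall into a near pair and a far site with different levels. The near pair, at 206 and 211 bp from the start (87405271 and 87405276 of chromosome 11), had means of 3.33% and 2.46% in testis, 64.7% and 61.5% in caput, 15.8% and 17.6% in corpus, with 2.73% and 1.52% in cauda. The far site, at 925 bp (87405990), had means, with the SD of 3 samples, of 36% ± 3.77 in testis, 71.8% ± 19 in caput, 55.4% ± 13 in corpus and 34.9% ± 3.40 in cauda. At the near pair caput replicate 1 rested on 10 and 11 reads, of which 100% and 90.9% were methylated, and the other caput samples were between 45.3% and 48.1%. Corpus replicate 1 had no methylated read among 15 at either site of the pair, and was above testis at the far site alone (45.9%). The corpus SDs of the pair were 14.1 and 15.3. From pooled reads its corpus differences were 19.5 and 20.1 points, and 9.84 and 11.9 without corpus replicate 2. All 3 sites were called in caput by the logistic regression. Without caput replicate 1, the far site was no longer called, with a difference of 22.3 points. Because the levels differ, the percentage of the gene also moves with how reads are divided between the near pair and the far site. With equal weight for each site the caput difference was 52.1 points (limma, adjusted p = 0.0482). All 3 sites are also within 2 kb of a start of Rad51c, a gene of recombinational DNA repair. Both stretches are shown on the plus strand of GRCm38, chr11:87405236-87405312 and chr11:87405954-87406025, with the measured CpGs in capitals, because they differed in level before the epididymis.
Tex14 near: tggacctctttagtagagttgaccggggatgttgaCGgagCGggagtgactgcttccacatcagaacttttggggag
Tex14 far: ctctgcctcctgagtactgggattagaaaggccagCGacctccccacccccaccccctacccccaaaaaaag
The meiotic genes without a site in the table were Sycp1, Sycp2 and Sycp3 of the synaptonemal complex, Hormad1, the recombination genes Spo11 and Dmc1, the retinoic acid response gene Stra8, and Tex11, Tex15 and Meig1.

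Of the 10 genes grouped here under the acrosome and egg binding, Tex101 and Spaca3 had sites. Tex101 encodes a membrane-anchored glycoprotein of germ cells that male fertility requires. In testicular spermatozoa its methylation was 0 of 54 and 0 of 38 reads in replicates 1 and 2 (up to 5.56% and 7.89%) and 4.08% of 49 reads (1.13 to 13.7%) in replicate 3. In caput it was 82.6% of 46 reads (69.3 to 90.9%), 33.9% of 59 reads (23.1 to 46.6%) and 59.6% of 47 reads (45.3 to 72.4%). The groups and their intervals did not overlap, and replicate 1 was again the highest caput sample. In corpus it was 30.0% of 40 reads (18.1 to 45.4%), 38.0% of 92 reads (28.8 to 48.3%) and 16.7% of 36 reads (7.87 to 31.9%). In cauda no methylated read was seen among 39, 27 and 50 reads (up to 7.69%, 11.1% and 6%). The corpus samples were all above the testicular ones, and corpus replicate 2 exceeded the lowest caput sample.

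The mean of Tex101 was 58.7% ± 24.4 in caput and 1.36% ± 2.36 in testis (SD, n = 3 each), 57.3 points apart and at rank 39 of all genes (exact permutation test, two-sided p = 0.1). By limma the difference was 6.45 (SE 0.88) on the log2 scale with an adjusted p of 0.00615, higher in 3 of 3 samples, and without caput replicate 1 it was 45.4 points with an adjusted p of 0.0158. In corpus the mean was 28.2% ± 10.8 (SD, n = 3), 26.9 points above testis in 3 of 3 samples, with a limma adjusted p of 0.0793. Without testicular replicate 3, the 1 testicular sample with methylated reads, this became 0.0357. Both sites lie in the 5′ UTR at 43 and 29 bp from the start (24672007 and 24672021 of chromosome 7), and both were called in caput (means 56.9% and 60.4%) and in corpus (24.5% and 31.9%). Without corpus replicate 2 the site at 29 bp was still called in corpus, with a difference of 28.9 points. The site at 43 bp was not, with 15.6 points. The stretch around both sites is shown on the minus strand of GRCm38, chr7:24671999-24672028, with the measured CpGs in capitals.
Tex101: tcgccatCGaagctgggtgcaCGgaggaca

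Spaca3, a lysozyme-like protein of the acrosome, was methylated in most reads of every sample. Its single site, in an intron at 185 bp from the start (80858557 of chromosome 11), was methylated in 100%, 93.0% and 97.4% of 37, 57 and 38 reads in testis. In caput it was methylated in 91.3%, 66.7% and 100% of 23, 24 and 15 reads, in corpus in 97.0%, 96.4% and 84.6% of 33, 28 and 39 reads, and in cauda in 95.5%, 100% and 94.7% of 44, 40 and 19 reads. The groups overlapped, and caput replicate 2 was the lowest sample (Wilson 95% interval 46.7 to 82.0%). The mean was 96.8% ± 3.55 in testis and 86% ± 17.3 in caput (SD, n = 3 each), a difference of -10.8 points with a limma adjusted p of 0.724, which was -1.13 points without caput replicate 2 and -17.8 without caput replicate 3. In corpus the difference was -4.11 points and in cauda -0.0532 points (limma, adjusted p = 0.892 and 1, with overlapping samples), and without corpus replicate 3 that of corpus was -0.0845 points. The sequence on the plus strand of GRCm38, chr11:80858522-80858593, holds this CpG alone, in capitals. The stretch shown for the far site of Tex14 also holds 1 CpG.
Spaca3: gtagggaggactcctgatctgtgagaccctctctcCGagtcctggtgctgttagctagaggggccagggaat
No site in the table lay near the other genes of this role: Izumo1, which binds the egg receptor, the zona-binding proteins Zpbp and Zpbp2, the protease Acr and its binding protein Acrbp, and Spaca1, Crisp2 and Spata16.

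Among the 3 testis-specific serine kinases, Tssk6, which sperm need to fuse with the egg, had 2 sites and Tssk2 and Tssk3 had none. No methylated read was seen at Tssk6 in testicular spermatozoa (70, 42 and 45 reads, up to 4.29%, 7.14% and 6.67%), in caput (20, 65 and 52 reads, up to 15%, 4.62% and 5.77%) or in cauda (48, 27 and 28 reads, up to 6.25%, 11.1% and 10.7%). In corpus 7.5% of 40 reads, 0 of 21 reads and 9.09% of 33 reads were methylated, with Wilson intervals from 2.58 to 19.9% in replicate 1 and from 3.14 to 23.6% in replicate 3 and an upper limit of 14.3% in replicate 2. Each of these corpus values rests on 3 methylated reads, all at 1 of the 2 sites (69902167 of chromosome 8, position -17). The corpus difference of 5.53 points had a limma adjusted p of 0.328, with 2 of 3 samples above testis. Without corpus replicate 2, the sample at 0, it was 8.30 points with an adjusted p of 3.81e-07, on a log2 scale where all the other samples are at 0. Both sites, at -17 and -15, also lie within 2 kb of a start of Yjefn3 and of Ndufa13, a gene of the respiratory chain. They are shown on the plus strand of GRCm38, chr8:69902154-69902183, in capitals, as the promoter that had no methylated read in caput. This stretch overlaps a UTR of Ndufa13.
Tssk6: caataaaagtcatCGCGgctgtagggcctt

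Of the remaining roles no gene had a site in the table. This holds for the 6 genes of sperm chromatin (the protamines Prm1, Prm2 and Prm3, the transition proteins Tnp1 and Tnp2, and the acetyl-histone reader Brdt). It also holds for the 13 genes of the flagellum and motility, namely the outer dense fibre genes Odf1 and Odf2, the calcium channel subunits Catsper1, Catsper2, Catsper3 and Catsper4, the tektins Tekt1 and Tekt2, and Akap3, Smcp, Cabyr, Spata18 and Dnajb13. The 4 germ cell isoenzymes and carriers, Ldhc, Gapdhs and Pgk2 of glycolysis and the mitochondrial ADP/ATP carrier Slc25a31, had none either.

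Caput was also compared with the later segments, as comparisons chosen after seeing the data. Against cauda, limma called 4 of the 6 genes (7.42% of all genes), all with higher methylation in caput. At these 4 genes, 3 of 3 caput samples lay above every cauda sample. The share of all genes with such a separation of caput from cauda or corpus is not given here. The difference was 58.4 points for Dazl (adjusted p = 0.00641), 58.7 for Tex101 (0.00352), 68.3 for D1Pas1 (0.0368) and 51.6 for Tex14 (0.0390). Of the other lists given below, limma called Krt18, lower in caput (-38.2 points, adjusted p = 0.00352), and Peg12 (22.7 points, 0.0359) and Dppa3 (11.3 points, 0.0390), higher in caput. Without caput replicate 1, limma called 3 of the 6 (3.55% of all genes), with 51.2 points for Dazl (adjusted p = 0.0203), 46.7 for Tex101 (0.00931) and 37.1 for Tex14 (0.0171), and D1Pas1 at 58.3 points missed the threshold (0.123). D1Pas1 also missed it without caput replicate 3 (0.0645). Without cauda replicate 1, 2 or 3, both D1Pas1 (0.104, 0.106 and 0.0620) and Tex14 (0.102, 0.106 and 0.0958) missed it, as they did with a block for the replicate number (0.0751 and 0.0694). Against corpus, limma called 0 of the 6 genes (0.164% of all genes), with 4 at an unadjusted p under 0.05 (Dazl, D1Pas1 and Tex14, higher in caput, and Tssk6, lower), as were 399 of all 3667 genes, and no other tool was run. The caput difference from corpus was 38.2 points for Dazl, 30.5 for Tex101, 44.1 for D1Pas1 and 28.5 for Tex14, with adjusted p of 0.295, 0.460, 0.431 and 0.456 in the same order. Leaving out caput replicate 1 reduced these to 31.1, 18.5, 34.1 and 14.04 points. For Dazl and Tex14 all 3 caput samples were above all corpus samples, and for Tex101 and D1Pas1 the groups overlapped. At these 4 genes the mean was highest in caput and next in corpus, and lower in testis and cauda. By limma, no gene of the 6 passed the threshold between caput and corpus, between corpus and testis, or between cauda and testis.

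**Figure D2:**
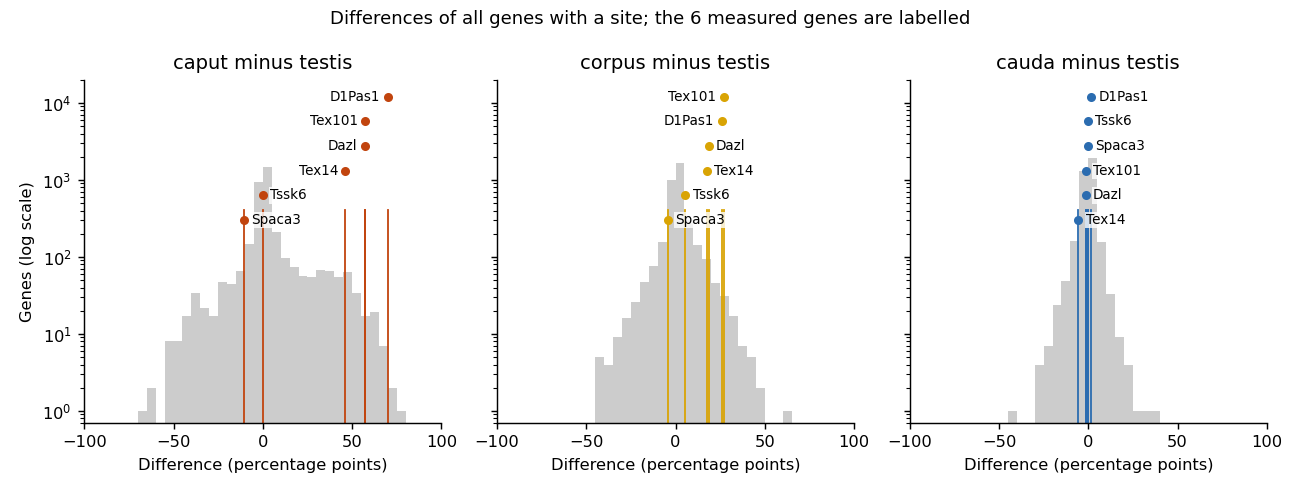
Histogram of the difference in percentage points (horizontal axis) between each epididymal segment and testicular spermatozoa for all 3667 genes with a site, with the number of genes on a log scale (vertical axis) and the 6 genes marked and named. In caput D1Pas1, Tex101, Dazl and Tex14 lay from 46.1 to 69.9 points, above the 95th percentile of 41.0 points of all genes. In cauda the 6 genes lay between -5.49 and 1.61 points.

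The level in testis and the number of CpGs at the start are given next as a description. Of the 3667 genes, 2775 had a testicular mean under 25%, among them Dazl, D1Pas1, Tex14, Tex101 and Tssk6. Of these 2775 genes, 334 (12.0%) were over 25 points higher in caput, 57 (2.05%) in corpus and 1 (0.0360%) in cauda. In the RefSeq promoters of GRCm38.p6, which hold 250 bases before and 50 bases after each start, 51 of the 60 genes were matched. The number of CpGs in a promoter was 28 for Dazl, 20 for Tex14, 19 for Tex101, 15 for D1Pas1, 14 for Tssk6 and 8 for Spaca3. The median was 17 over these 6 genes, 11 over the 45 matched genes without a site and 7 over all 32851 promoters. Tssk6 was close to D1Pas1 in both respects, and whether either bears on the calls was not tested. None of the measured sites of Dazl, Tex14 and Spaca3 lie in the stretch counted here.

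The sites of the table cover a small part of these windows. The windows of the 6 genes hold 952 CpGs, of which 14 (1.47%) were measured, and those of the other 54 genes hold 5891. CpG density did not separate the windows with a site, with a median of 14.6 CpGs per kb, from those without, with 15.1 per kb. CCGG, where the digest opens the DNA, occurred at a median of 1.23 per kb in the first and 1.03 per kb in the second, and the windows of 2 genes, Pgk2 and Smcp, held none. The 14 sites lie on 7 fragments of 78 to 323 bp between neighbouring CCGG positions.

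**Figure D3:**
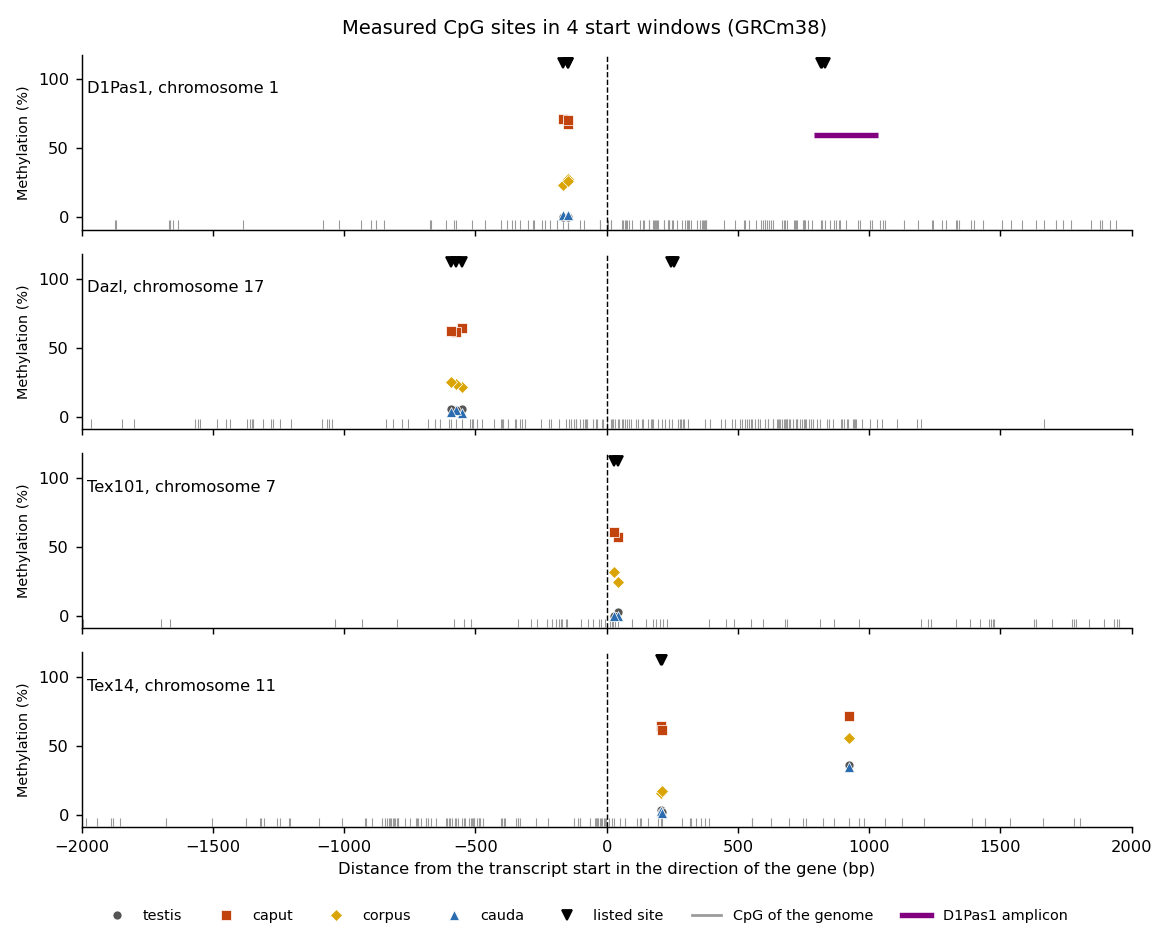
Windows of 2 kb to each side of the transcript start of D1Pas1, Dazl, Tex101 and Tex14, with the distance from the start in bp in the direction of the gene (horizontal axis) and the mean methylation of each measured CpG in percent per group (vertical axis, mean of 3 samples). Grey ticks mark all CpGs of the genome, black triangles the sites of the authors' lists, and a bar the pyrosequencing amplicon of D1Pas1. The measured sites form 1 short cluster in each window, with a further site in Tex14, where testis and cauda are near 36% and 34.9%.

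Each promoter was also searched, on both strands, for 3 sequence motifs that germline genes are known for: CACGTG (an E-box), TCCCGC (the core read by E2F factors) and TGACGTCA (the cyclic AMP response element). CACGTG and TGACGTCA share their inner letters but cannot match at the same place. CACGTG was found in 18 of the 68 RefSeq promoters of the 51 matched genes (26.5%), against 7.15% of all 32851 promoters. Its 15 genes were Mael, Slc25a31, Mov10l1, Ddx4, Sycp1, Sycp3, Tdrd1, Tdrd9, Hormad1, Stk31, Brdt, Piwil1, Crisp2, Spata16 and Meig1, none of which had a site in the count table. TCCCGC was found in 19 of the 68 (27.9%), against 20% of all, and D1Pas1 and Tex14 were the genes with a site among its 14 genes. TGACGTCA was found in 1 promoter, that of Izumo1 (1.47%, against 1.79% of all). A match is a description of the letters and no measure of binding.

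The authors also deposited a list of differentially methylated sites for each comparison, and here only the positions of these sites are used. The lists come from the same samples as the count table and give no independent evidence. The 60 genes were also chosen with earlier results of these data known. The shares below therefore describe the choice of genes and do not test it. The caput list holds 5546 sites, of which 19 lie in the windows of 7 of the 60 genes (11.7% of them, against 733 of 21951 protein-coding genes or 3.34%, 1 of 49 other germline genes, 3 of 51 other spermiogenesis genes and 2 of 35 genes of the epididymal epithelium). The corpus list holds 2228 sites, of which 13 lie in the windows of 6 of the 60 genes (10.0%, against 325 coding genes or 1.48%, and 1, 1 and 0 genes of these 3 lists). The cauda list holds 227 sites, of which 1 lies in the window of 1 gene (1.67%, against 35 coding genes or 0.159%, and 0 genes of each of these lists). Together, 24 distinct listed sites lie in the windows of 10 genes, and 14 of these sites are outside the count table, so that no value per sample is given for them here. Of the 60 genes, 48 had neither a site in the table nor a listed one.

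Listed sites lay near 6 genes that had no site in the table. In the caput list these were Mael, a piRNA pathway gene, with 166238606 and 166238624 of chromosome 1 in a coding exon, Slc25a31 with 40708588 of chromosome 3 outside the gene and 40709328 in an intron, and Tekt2 with 126324791 of chromosome 4 in an intron and 126324823 in a coding exon. In the corpus list they were Asz1, a germ granule gene, with 18109029 of chromosome 6 in a coding exon, Mov10l1 with 88983618 of chromosome 15 in an intron, and Catsper1 with 5337830 of chromosome 19 in a coding exon. The Mov10l1 site is also the 1 site of the cauda list. Dazl had 2 further sites in the corpus list, 50293343 and 50293355 of chromosome 17, in an intron downstream of its start. Among the 14 sites of the 60 genes in the count table, those called in caput by the logistic regression were in the caput list except the far site of Tex14. The 5 of them called in corpus were in the corpus list.

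D1Pas1 had 3 more sites in both the caput and the corpus list, at 186968233, 186968238 and 186968248 of chromosome 1, 817, 822 and 832 bp from the start in the coding exon. They lie within the amplicon that the study's pyrosequencing primers bound, which was located on the bisulfite-converted sequence with 0 mismatches at chr1:186968205-186968451 on the plus strand of GRCm38 (247 bp, 13 CpGs). None of the 13 CpGs is in the count table, and the measured sites lie upstream of the start, so the amplicon and the values above cover different CpGs of this gene. Whether reads of the coding exon could have come from Ddx3x was not tested. The unconverted reference sequence of the amplicon is shown with the 3 listed CpGs in capitals.
D1Pas1 amplicon: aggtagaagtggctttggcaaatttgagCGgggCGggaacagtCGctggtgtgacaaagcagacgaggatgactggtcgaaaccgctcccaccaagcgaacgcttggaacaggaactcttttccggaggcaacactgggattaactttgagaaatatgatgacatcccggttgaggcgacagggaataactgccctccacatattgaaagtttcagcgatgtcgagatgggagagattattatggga

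Other genes of the same processes were read from separate lists, and their difference from the 60 genes was not tested. Of 49 other germline genes, 5 had a total of 8 sites, and 2 of these 8 sites were called in caput (16.8% of all sites), both in Tdrd6, a Tudor protein of the germ granule. Both were higher in caput and in corpus, and 0 were called in cauda (0.233% of all sites). In replicates 1, 2 and 3, Tdrd6 had 10.2%, 31.1% and 23.1% in testis, 81.6%, 42.9% and 73.7% in caput, 25%, 52.8% and 62.7% in corpus, with 9.09%, 30.0% and 42.9% in cauda (20 to 61 reads each). All caput samples were above the testicular ones, but not by far in replicate 2, and the caput difference of 44.6 points had a limma adjusted p of 0.109. It was 36.8 points with an adjusted p of 0.326 without caput replicate 1. limma called 1 of the 5 genes in caput (6.52% of all genes), Dppa3, which protects methylation in the early embryo and is named here after its values were seen. It had 1.06%, 0% and 0% in testis and 22.9%, 8.82% and 3.57% in caput (adjusted p = 0.0392, higher in 3 of 3 samples), a difference of 11.4 points that was 5.84 (adjusted p = 0.106) without caput replicate 1. Smc1b, Mei1 and Prdm9 were the other genes with a site. Mei1 lay in the other direction, with a mean of 88.0% in caput and 98.4% in testis, lower in 3 of 3 samples (limma, adjusted p = 0.141), a difference of -10.3 points that was -4.98 without caput replicate 1. The median caput difference over the 5 genes was 2.14 points.

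Of 51 other spermiogenesis genes, 5 had a total of 6 sites (Adam2, Rfx2, Spag4, Izumo2 and Izumo4). The logistic regression called 0 of these sites and limma 0 of these genes in caput, corpus and cauda. In these segments the regression called 16.8%, 3.96% and 0.233% of all sites, and limma 6.52%, 0.627% and 0.0273% of all genes. In caput the limma adjusted p was 0.337 for Adam2 and at least 0.524 for the other 4, and the median difference over the 5 genes was 2.19 points. Without caput replicate 1 the differences were 12.7 points for Adam2, 1.07 for Rfx2, 0.720 for Izumo2, 0.113 for Spag4 and 0 for Izumo4.

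Marker lists were read in the same way to describe the cells in each sample. Of the imprinted genes methylated in sperm, H19 had 97.8%, 96.7% and 92.8% in testis, 87.1%, 93.2% and 93.7% in caput, 97.1%, 94.1% and 89.3% in corpus, with 98.9%, 98.4% and 97.1% in cauda. It was thus high in every sample, as known for male germ cells, and lowest in caput replicate 1. Rasgrf1 was at most 3.57% in all samples, at 4 sites that lie away from its imprinted region, and Meg3 had no site. No site or gene of this list was called in caput, corpus or cauda by logistic regression or limma. In these segments the regression called 16.8%, 3.96% and 0.233% of all sites, and limma 6.52%, 0.627% and 0.0273% of all genes.

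The imprinted genes methylated in oocytes and not in sperm had sites at Mcts2, Peg12 and Zrsr1, which are 3 of 20 genes with 10 sites. Over these sites the methylation was 0%, 0.459% and 4.27% in testis, 39.6%, 13.5% and 15.8% in caput, 10.2%, 5.97% and 4.55% in corpus, with 0%, 0% and 1.77% in cauda. In this sum each caput sample was above all testicular samples, with replicate 1 far above the others. In caput 4 of the 10 sites were called (16.8% of all sites), all with higher methylation, 3 of Mcts2 and 1 of Peg12. Without caput replicate 1 none was (11.9% of all sites). Mcts2 had 68.1%, 22.6% and 17.0% in caput against 0%, 1.75% and 5.61% in testis, and Peg12 35.5%, 14.9% and 17.7% against 0%, 0% and 1.77%. Zrsr1 had 26.8%, 0% and 11.4% against 0%, 0% and 8.99%, with overlapping samples. limma called 0 of the 3 genes in caput (6.52% of all genes), with an adjusted p of 0.0937 for Mcts2, 0.0524 for Peg12 and 0.623 for Zrsr1. Without caput replicate 1 the limma adjusted p was 0.289 and 0.164 for the first pair. Peg12 had the most reads of this list. Caput replicate 1 thus had the highest level both of this list and of Dazl, D1Pas1, Tex14 and Tex101. The part of this list in the result was not tested.

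Of 35 genes of the epididymal epithelium, 4 had a total of 16 sites (Krt18, Krt19, Cldn3 and Pax2). Over these sites the methylation was 29.5%, 24.4% and 21% in testis, 11.6%, 10.4% and 8.25% in caput, 21.5%, 18.1% and 12.9% in corpus, with 20.8%, 17.1% and 23.1% in cauda. In this sum the caput samples were all lower than the testicular and cauda samples. The sum also moves with how reads are divided between genes at different levels, such as Krt18, high in testis, and Pax2, low in every sample. Their shares of the reads differed between samples, and the part of this in the lower caput sums was not tested. In caput 6 of the 16 sites were called (16.8% of all sites), all with lower methylation, 5 of Krt18 and 1 of Krt19, keratins of simple epithelia. In corpus 1 site was called, of Krt18 (3.96% of all sites). Krt18 fell from 92.1% ± 2.54 in testis to 51.7% ± 7.07 in caput (SD, n = 3 each; limma, adjusted p = 0.00348, lower in 3 of 3 samples), and was 71.6% in corpus and 89.9% in cauda. Without caput replicate 1 its adjusted p was 0.0108. Krt19 had 8.33% in caput against 61.9% in testis (limma, adjusted p = 0.0817), with 0%, 25% and 0% in caput replicates 1, 2 and 3, and a difference of -49.4 points without caput replicate 1. Cldn3 had a mean of 4.01% in caput and 7.11% in testis, with overlapping samples. Pax2, with the most reads of the list, was at most 2.22% in every sample and a little higher in 3 of 3 caput samples (mean 1.54% against 0.323%). The other genes of the list, such as Crisp1, Lcn5 and Adam7, had no site in the table. In caput Krt18 and Krt19 were lower in 3 of 3 samples, where Dazl, D1Pas1, Tex14 and Tex101 were higher, and Cldn3 and Pax2 were already low in testis. The part of these genes in the result was not tested. None of 18 leukocyte genes, Ptprc among them, had a site in the table.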

How the data were processed

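Spermatozoa of 4 groups with 3 samples each, as the labels give them, were analysed from the counts that the authors deposited. According to the submitters' notes and methods, libraries were made with a Diagenode Premium RRBS kit, and reads were trimmed with Trim Galore (version 0.4.1), checked with FastQC, aligned to GRCm38 with Bismark (version 0.16.1) and tested with methylKit. The deposited table holds counts of all, methylated and unmethylated reads at 14149 CpG sites, with at least 10 reads in every sample. The authors' 3 lists of differentially methylated sites hold a methylation difference in percent, a p-value and a q-value for each site. These columns were not used, and only the positions were. By their names, the lists for caput and corpus leave out outliers, and which samples these are was not tested here.

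Transcript starts were those of GENCODE M21, and reads were summed per gene over sites within 2 kb of a start. Sites were tested by logistic regression on pooled reads (chi-square test on the likelihood ratio, adjusted over 14149 sites after Benjamini and Hochberg). Genes were tested by limma on log2((percent methylated + 1)/(percent unmethylated + 1)), adjusted over 3667 genes. Both were tested on simulated data, drawn without spread between samples beyond that of reads, in which they recovered most of the changed sites and genes, and limma also called a small number of unchanged genes. Wilson intervals are at 95%, and the limit for a sample with no methylated read is 3 reads of its coverage. Caput against cauda, caput against corpus, and the values without caput replicate 1 for other lists and over all genes were added after seeing the data.

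Every gene of the 60 with a site is named, with values per sample, and those without a site are listed. Of the other lists, genes with a called site are named, at most 4 per list by their caput difference. The 60 genes and the other lists were chosen with earlier results of these data known. The software was R 4.3.3 with limma 3.58.1, and Python 3.11.15 with pysam 0.24.0, matplotlib 3.10.9, scipy 1.17.1, pandas 2.3.3 and numpy 2.4.6.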

Additional observations from a re-analysis of the deposited data

How the results depend on the processing

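The alternatives were an overdispersion term, limma per site, a difference above 40 points, an adjusted p under 0.001, at least 20 reads, windows of 1 kb and 5 kb, starts of protein-coding transcripts, a pseudo-percent of 5, pooled logistic regression per gene, equal weight of sites, genes with at least 3 sites, a replicate block and leaving out each replicate. The 11 sites called in caput became 0 with the overdispersion term, which called 0 of all 14149 sites in each comparison and none of the changed sites of simulated data, and 4 with at least 20 reads, when 4 of the 14 sites were left to test. The 5 sites called in corpus became 0 with the overdispersion term, 0 by limma per site, 0 above 40 points and 0 with at least 20 reads. They ranged from 1, without corpus replicate 2, to 6 when single replicates were left out. The 3 genes called in caput became 1 with at least 20 reads, where fewer sites remained. The 0 genes called in corpus became 2 by the pooled logistic regression (Tex101 and D1Pas1) and ranged from 0 to 1 when single replicates were left out, with 1 without testicular replicate 3 (Tex101) and 1 without corpus replicate 2 (Tssk6). The 4 genes called in caput against cauda ranged from 2 to 4, with 2 without cauda replicate 1, 2 or 3, and the 0 genes in caput against corpus from 0 to 1, with 1 without corpus replicate 2 (Tssk6). Beyond the fewer sites at 20 reads, the cause was not tested. Counts under an alternative that stand without a share of all sites or genes have no background beside them. No direction of a called gene or site count was reversed, and the median differences moved by less than the SD between samples.

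For single genes in caput, Dazl kept its call in 15 of 15 alternatives (49.8 to 65.1 points) and Tex101 in 13 of 13 (45.4 to 69.7 points). D1Pas1 lost it in 5 of 14, and Tex14 gained one in 5 of 15. Over all 15, the difference at Tex14 ran from 31.6 to 53.8 points and the adjusted p from 0.0443 to 0.178.

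Labels give all groups replicates 1 to 3. Deviations of same-numbered samples from their group means gave no sign of pairing. They correlated at -0.0291, -0.0103 and -0.0128 between caput and testis, and between -0.121 and 0.0405 in corpus and cauda against testis. For caput against cauda and caput against corpus this was not tested. With a replicate block, 10 sites were called in caput, 5 in corpus and 0 in cauda, and limma called 2, 0 and 0 of the 6 genes. D1Pas1 then had an adjusted p of 0.0623. In caput against cauda the block gave 2 genes. The shares of all sites and genes called with the block are not given here, so these counts have no background beside them.

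At 10 to 124 reads per site, a single read is worth up to 10 points. Only 6 of the 60 genes were measured, at 14 of 952 CpGs, and neighbouring sites share fragments, so the 14 sites are not independent. The pooled test ignores the spread between samples, and 3 samples a group leave limma little to estimate it from.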

Other observations

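With windows of 5 kb in place of 2 kb, 10 of the 60 genes had a site, with 22 sites in all. The 4 further genes were Akap3, an anchoring protein of the flagellum, the sperm calcium channel subunit Catsper1, the transition protein Tnp2 and Izumo1, which binds the egg receptor. The 1 site of Izumo1 (45627542 of chromosome 7, 3149 bp from a start) was 44.6 points higher in caput than in testis, 8.68 points higher in corpus and 5.37 points higher in cauda. The 1 site of Catsper1 (5332025 of chromosome 19, position -3716) had a difference of -40.1 points in caput, -5.61 in corpus and -5.37 in cauda. Both were called in caput by the logistic regression (16.8% of all sites), in opposite directions. The 4 sites of Akap3 and the 2 of Tnp2 differed by -2.28 to 0 points in caput and were not called.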
